A study of Mus musculus with 10 samples.

Results

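REST (RE1-silencing transcription factor) was immunoprecipitated with its chromatin from mouse cortex and the bound DNA was sequenced (ChIP-seq), and 676 of the 5077 peaks of the 3xTg list lay between genes at places where the WT list holds no peak. These 3xTg-only intergenic peaks were selected on measured values. Each is a 3xTg peak that shares no base with any WT peak, and its summit (the base of highest signal) is more than 1 kb from every curated RefSeq start site and outside every curated RefSeq transcript. The 680 intergenic 3xTg peaks that do overlap a WT peak, called shared intergenic peaks below, are the closest comparison.

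The libraries came from 11-month-old female mice. The 3xTg mice carry human transgenes for APP Swe and tau P301L and a knock-in mutation of PS1, on a mixed background of 129Sv/Ev and C57BL/6J, and the WT mice were littermate controls. The promoters that drive the transgenes are not given in the sources used here. Each genotype had 4 replicates, each a pool of 4 cortices of bulk tissue, and 1 input library, and chromatin was precipitated with an antibody to the C-terminal region of REST. Bulk cortex mixes neurons and glia, so more cells with a bound site and more binding per cell cannot be told apart.

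REST is a zinc finger repressor that recruits corepressor complexes carrying histone deacetylases and demethylases. It is best known for keeping neuronal genes silent outside neurons, and it is also present in neurons of the ageing brain. It binds a long composite sequence called RE1, whose left and right parts are contacted by different zinc fingers. Many known RE1 sites lie far from start sites, so intergenic binding is an ordinary part of its profile.

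The authors deposited 1 peak list per genotype that combines the 4 replicates. No value of a peak in these lists therefore has a replicate spread. No test between genotypes was made here, and every interval below covers counting error over peaks only. The study itself compared the genotypes with DiffBind. It reported peaks with significantly higher REST occupancy in 3xTg and none with significantly lower occupancy. The peaks with higher occupancy were fewer than the members described here, so not all members can be among them. Which members are among the peaks with higher occupancy was not examined here. The read depth behind each peak is unknown from these lists. The lists also stop at different heights. The lowest fold enrichment over local background was 8.50 in the 3xTg list and 6.0 in the WT list, and the lowest -log10 q was 29.0 and 13.3. A site missing from the WT list may hold WT signal under 6.0, so absence from that list is not absence of REST.

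The sequences of the members with an RE1 site come first, because RE1 is the sequence by which REST is defined. An RE1 site was a match to the 20-base RE1 consensus with at most 5 mismatches, on either strand, inside a window of 100 bases on either side of the summit (the summit window). Of the 676 members, 12 had such a site. Each is printed 5′ to 3′ on the strand of the site with 10 bases on either side, from the RefSeq copy of mm10, and capitals mark the bases that match the consensus.
Rapgef1 (1 mismatch, chr2:29573761-29573800, minus strand): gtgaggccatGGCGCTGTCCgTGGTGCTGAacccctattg
4930535O05Rik (2 mismatches, chr8:87349919-87349958, plus strand): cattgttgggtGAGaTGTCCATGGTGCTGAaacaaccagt
Chga (3 mismatches, chr12:102550685-102550724, minus strand): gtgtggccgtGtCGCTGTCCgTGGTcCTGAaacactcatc
Vstm2l (3 mismatches, chr2:157970860-157970899, plus strand): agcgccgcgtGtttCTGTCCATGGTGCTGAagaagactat
Ajap1 (3 mismatches, chr4:153189681-153189720, plus strand): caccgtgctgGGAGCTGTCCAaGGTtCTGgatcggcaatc
H2-K2 (3 mismatches, chr17:33972784-33972823, plus strand): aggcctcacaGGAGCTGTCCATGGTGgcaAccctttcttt
Tcf20 (3 mismatches, chr15:82921279-82921318, plus strand): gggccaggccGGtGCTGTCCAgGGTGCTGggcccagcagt
Cdc42ep5 (4 mismatches, chr7:4178579-4178618, plus strand): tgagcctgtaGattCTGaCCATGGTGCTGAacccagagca
Wfs1 (4 mismatches, chr5:37009904-37009943, minus strand): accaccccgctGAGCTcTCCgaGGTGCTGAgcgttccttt
Napepld (5 mismatches, chr5:21706770-21706809, minus strand): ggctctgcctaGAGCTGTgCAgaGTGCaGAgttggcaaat
Abcc12 (5 mismatches, chr8:86274020-86274059, plus strand): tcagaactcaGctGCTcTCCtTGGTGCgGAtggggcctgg
Ubald2 (5 mismatches, chr11:116432773-116432812, minus strand): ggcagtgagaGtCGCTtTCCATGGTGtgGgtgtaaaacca

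These sites are named by the gene with the nearest curated start site, which need not be a gene that REST controls. The member with the fewest mismatches lay 45981 bases upstream of Rapgef1, which encodes an exchange factor for the small GTPase Rap1, and its fold enrichment of 9.72 ranked 3448th among the 5077 3xTg peaks. The member at Chga, the gene for the dense-core granule protein chromogranin A, lay 4263 bases upstream of the start site with a fold enrichment of 12.9. A WT peak with a fold enrichment of 7.28 covered the Chga start site itself, 3705 bases from the member. The member 5178 bases upstream of Napepld, an enzyme of N-acylethanolamine synthesis, likewise had a WT peak 3984 bases away. By contrast, the member 56201 bases downstream of the Vstm2l start had its nearest WT peak 56143 bases away, and that peak was 15th of the WT list with a fold enrichment of 46.3.

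The remaining members with an RE1 site spanned the same modest heights. The member in the Wfs1 neighbourhood, wolframin of the endoplasmic reticulum membrane, was the weakest of the 12 at 8.93, and the one next to Tcf20, a transcriptional regulator, stood at 8.98. The peaks nearest Ajap1, an adherens junction protein, and Cdc42ep5, an effector of Cdc42, both had a fold enrichment of 11.0. The summit lay within 61 bases of the site's centre in 11 of the 12, and 75 bases from it at H2-K2, a gene of the major histocompatibility complex. None of the 10 members with the highest fold enrichment had an RE1 site.

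Across the whole 3xTg list, 2588 of 5077 peaks (51.0%) overlapped no WT peak. The intergenic share without a WT peak was 676 of 1356 (49.9%, 95% Wilson interval 47.2 to 52.5), beside 48.2% for promoter peaks and 53.7% for gene-body peaks. The intergenic share was thus close to that of the whole list. Members made up 26.1% of all 3xTg-only peaks (24.5 to 27.8), and the shared intergenic peaks made up 27.3% of all shared 3xTg peaks (25.6 to 29.1).

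Members were low peaks of their list. Their fold enrichment ran from 8.52 to 25.0 with a median of 9.84 and quartiles of 9.12 and 11.0, whereas shared intergenic peaks had a median of 14.7 and reached 69.0. Only 9 of the 676 members stood at or above that median of the shared peaks, 7 were among the 1000 highest 3xTg peaks and 1 was among the highest 500. Members were also narrower, with a median width of 683 bases against 902. These heights and widths come from the same lists as the selection, so they describe the members and support nothing.

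The share of intergenic 3xTg peaks that lacked a WT peak fell with peak height. It was 83.8% at a fold enrichment over 8 and up to 9, 79.7% from there to 10, 63.9% from 10 to 12, 36.7% from 12 to 15, and 2.40% above 15, where 8 peaks were members and 326 were shared. This gradient is likewise a description of the selection.

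**Figure D1:**
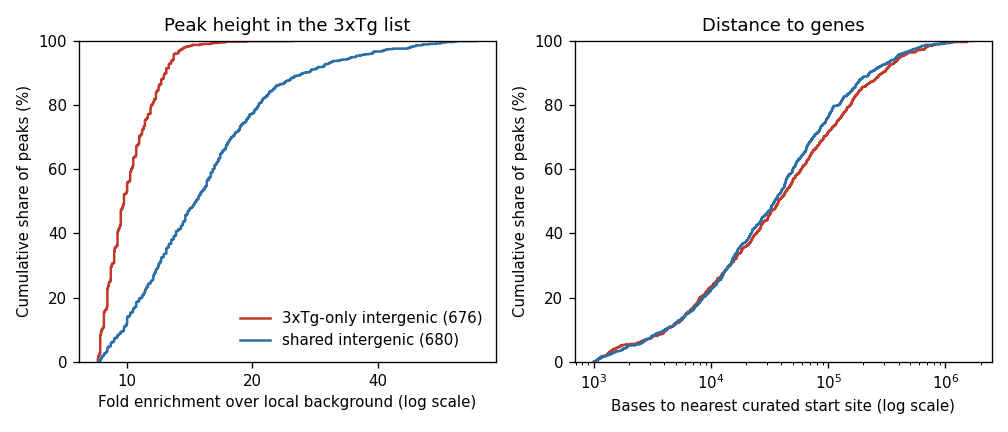
Cumulative share of peaks (%) by fold enrichment over local background (left, log scale) and by distance in bases from the summit to the nearest curated RefSeq start site (right, log scale), for the 676 3xTg-only and the 680 shared intergenic peaks. The height curves part from the start, with medians of 9.84 and 14.7, while the distance curves run close together, with medians of 37780 and 35028 bases.

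An RE1 site was less common in members than in shared intergenic peaks. It was present in 12 of 676 members (1.78%, 1.02 to 3.08) and in 52 of 680 shared intergenic peaks (7.65%, 5.88 to 9.89), a difference of -5.87 percentage points (95% Newcombe interval -8.24 to -3.68). Windows of the same length 10 kb downstream of the members held a site in 3 of 676 (0.444%, 0.151 to 1.30), and those 10 kb upstream also in 3. The share in members was 1.33 points above the downstream windows (0.191 to 2.67). These windows, here and below, were placed by distance alone and were not matched to members in base composition or repeat masking. All 3xTg peaks together had an RE1 site in 3.80%.

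The low share was not particular to intergenic sites. RE1 sites were found in 1.64% of 3xTg-only gene-body peaks (1.05 to 2.54) and in 0.933% of 3xTg-only promoter peaks (0.453 to 1.91). Their shared counterparts held one in 4.79% and 6.82%. Among the 97 WT peaks that were intergenic and overlapped no 3xTg peak, 4 had a site (4.12%, 1.62 to 10.1), an interval wide enough to hold both the member and the shared values.

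Peak height differs between members and shared peaks, so the RE1 shares were set side by side within bands of fold enrichment. Members had the lower share in each of the 5 bands. From 9 to 10 it was 1.47% of 204 members against 13.5% of 52 shared peaks, a difference of -12.0 points (-23.8 to -4.67). The interval of the difference included 0 in the other bands, which were -5.38 points from 8 to 9 (-20.1 to 0.460), -4.42 from 10 to 12 (-10.4 to 0.0690), -5.02 from 12 to 15 (-10.3 to 0.984) and -7.67 above 15 (-11.1 to 24.9). Above 15 the members had 0 sites in 8 peaks, which allows a share of up to 37.5% by the limit used here for a count of 0, 3 counts of the total. With the middle bands joined, over 10 and up to 15, the difference was -4.35 points (-8.14 to -1.01).

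**Figure D2:**
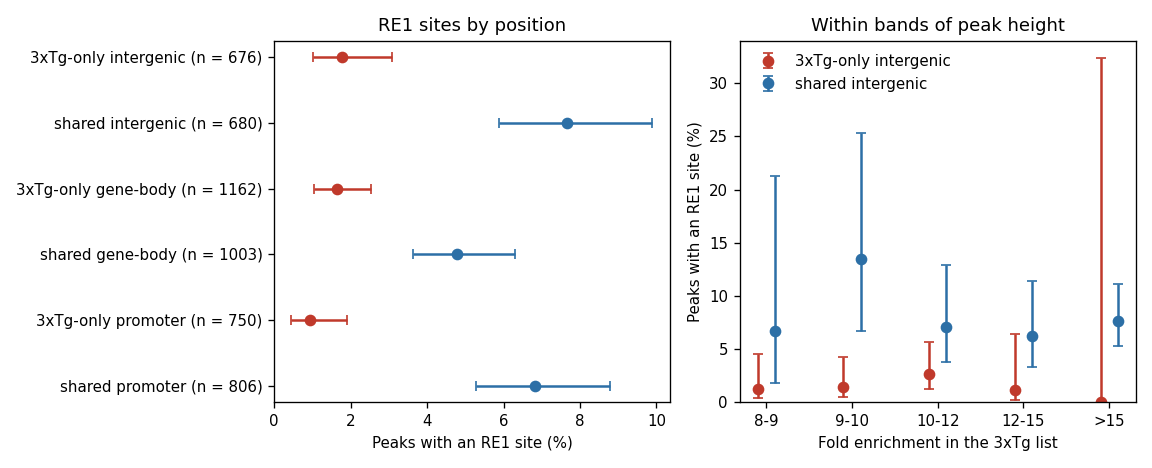
Share of 3xTg peaks (%) with an RE1 site, by position and overlap with the WT list (left) and for intergenic peaks within bands of fold enrichment (right), with 95% Wilson intervals as bars. The 3xTg-only classes sit between 0.933% and 1.78% and the shared classes between 4.79% and 7.65%, and within each band the members sit lower, with bars that overlap in most bands.

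The strongest members lay in unrelated neighbourhoods. The highest of all, chr2:57629373-57629841, had a fold enrichment of 25.0 and ranked 246th of the 3xTg list. It lay 368593 bases upstream of Galnt5, an enzyme that starts O-linked glycosylation, and 406528 bases from any WT peak. The next in height, with 19.3, lay 4211 bases upstream of Zfr, and its sequence is shown because it is the highest member that held the 6-base sequence described further on. It gives 50 bases on either side of the summit, plus strand of mm10, with that 6-base sequence in capitals.
Zfr (fold enrichment 19.3, chr15:12113590-12113690): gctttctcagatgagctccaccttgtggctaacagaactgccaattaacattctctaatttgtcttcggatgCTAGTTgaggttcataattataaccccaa

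The third, with a fold enrichment of 17.3, lay 97543 bases upstream of Vmn2r87, a vomeronasal receptor gene. A member with 17.1 lay 143264 bases upstream of Adra1b, the alpha-1B adrenergic receptor. Others were found 160347 bases upstream of Gm10280 (16.6), 99837 bases downstream of the start of Wls, a carrier of secreted Wnt proteins (16.0), 377969 bases downstream of the start of Dnajb9, a co-chaperone of the endoplasmic reticulum (15.9), 332916 bases upstream of Nmur2, a neuromedin U receptor (15.2), 12604 bases upstream of Fam205c (15.0) and 10421 bases upstream of Pomgnt2, a glycosyltransferase that acts on dystroglycan (14.3). The member near Dnajb9 had a strong WT peak close by, 3852 bases away with a fold enrichment of 19.7 and 94th of the WT list. The summit lay on a masked base in 4 of the 10 highest members, while it did so in 13.6% of all members (11.2 to 16.4) and in 12.1% of shared intergenic peaks (9.82 to 14.7).

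In base composition members resembled shared intergenic peaks. The GC content of the summit window had a median of 44.3% in members (43.3 to 44.8) and 45.3% in shared intergenic peaks (44.8 to 45.8). The median number of CpG was 2.00 in each, and windows with no CpG made up 19.8% of members (17.0 to 23.0) and 21.8% of shared intergenic peaks (18.8 to 25.0).

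Short binding sequences of other factors were searched in the same windows, on both strands. The AP-1 site TGANTCA, bound by FOS and JUN proteins, occurred in 112 members (16.6%, 14.0 to 19.6), in 13.5% of shared intergenic peaks (11.2 to 16.3), in 12.1% of all 3xTg peaks and in 6.66% of windows 10 kb downstream (5.01 to 8.79). Members thus exceeded the downstream windows by 9.91 points (6.54 to 13.3) and differed from shared intergenic peaks by 3.04 points with an interval that includes 0 (-0.774 to 6.85). The E-box CAGCTG, bound by proneural basic helix-loop-helix factors, gave 18.8% in members and 18.8% in shared intergenic peaks, 15.6% over all 3xTg peaks and 8.43% downstream. The E-box CAGATG was nearer its surroundings, at 20.1% in members, 15.8% over all 3xTg peaks and 15.8% downstream (difference from downstream 4.29 points, 0.193 to 8.38).

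The AP-1 matches are shown for the 4 highest members that have one within 30 bases of the summit. Each line shows 30 bases on either side of the summit, plus strand of mm10, with the AP-1 match in capitals.
Ccdc15 (fold enrichment 13.8, chr9:37351520-37351580): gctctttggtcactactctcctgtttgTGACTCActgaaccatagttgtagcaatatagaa
Sucla2 (fold enrichment 12.9, chr14:73688007-73688067): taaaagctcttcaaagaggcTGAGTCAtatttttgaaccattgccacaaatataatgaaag
Hhat (fold enrichment 12.4, chr1:192785126-192785186): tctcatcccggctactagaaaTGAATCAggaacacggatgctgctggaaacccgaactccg
Arl4a (fold enrichment 12.3, chr12:39649146-39649206): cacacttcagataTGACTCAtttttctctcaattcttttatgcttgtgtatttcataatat

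The separate parts of RE1 were no more common in members than beside them. The left part, CAGCACC, occurred in 3.85% of members (2.64 to 5.58), in 9.12% of shared intergenic peaks (7.18 to 11.5), in 7.84% of all 3xTg peaks and in 5.62% of downstream windows. The right part, GGACAG, was present in 13.0%, 17.6%, 15.7% and 14.8% in the same order. Members lay -5.27 points (-7.96 to -2.67) and -4.63 points (-8.46 to -0.791) from shared intergenic peaks, and both intervals of the difference from the downstream windows included 0.

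Sequences typical of promoters were searched as well. The GC box GGGCGG, bound by SP and KLF factors, occurred in 5.62% of members (4.12 to 7.62), in 6.91% of shared intergenic peaks (5.24 to 9.07) and in 2.66% of downstream windows (1.69 to 4.17), and members exceeded the downstream windows by 2.96 points (0.833 to 5.18). Over all 3xTg peaks its share was 16.9%, and in 3xTg-only promoter peaks it was 44.3%. The CRE TGACGTCA, the CREB site, was found in 0 of 676 members, which allows up to 0.444%, and in 0.788% of all 3xTg peaks. It was also rare in shared intergenic peaks (0.294%), and the difference of -0.294 points had an interval that includes 0 (-1.07 to 0.310). In 3xTg-only promoter peaks its share was 1.73%. The CCAAT box gave 25.1% in members, 28.1% over all 3xTg peaks and 28.6% downstream. The EGR site GCGTGGGC occurred in 5 members (0.740%) and in 0.591% of all 3xTg peaks. The palindromic NFI site was in none of the 676 members, which again allows up to 0.444%, and in 0.0985% of all 3xTg peaks. The core of the insulator factor CTCF was found in 9 members (1.33%, 0.702 to 2.51), in 0.748% of all 3xTg peaks and in 0 of the 676 downstream windows.

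**Figure D3:**
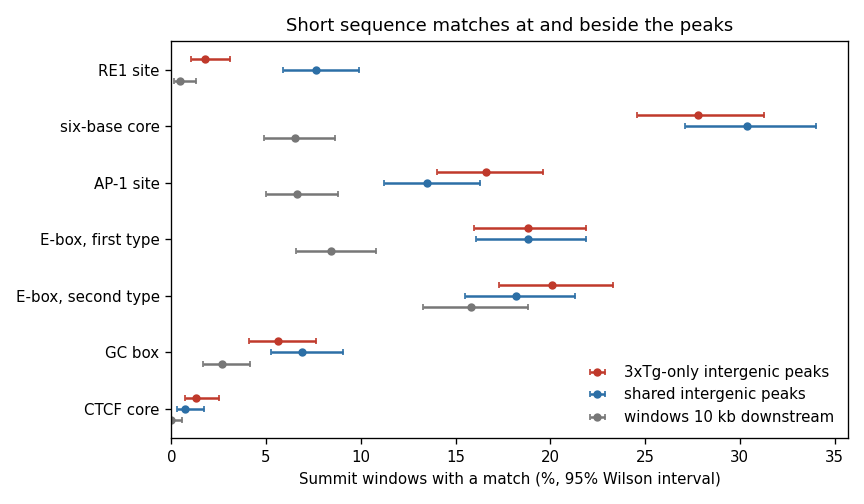
Share of summit windows (%) that hold each short sequence on either strand, with 95% Wilson intervals, for 3xTg-only intergenic peaks, shared intergenic peaks and windows 10 kb downstream of the former. The first and second E-box types are the ones with 18.8% and 20.1% in members. Among the sequences plotted, the intervals of members and shared peaks overlap for all but RE1, and both lie above the downstream windows for the 6-base core, AP-1 and the first E-box.

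The 6-base sequences were also searched with no factor in mind. All 6-base sequences found in at least 60 member windows were ranked by their number in members over that in the downstream windows, with 2 added to each. The palindrome ACTAGT came first, in 105 members (15.5%) and 15 downstream windows (2.22%). AACTAG, which reads CTAGTT on the other strand and is called the 6-base core below, came second, in 188 members (27.8%, 24.6 to 31.3) and 44 downstream windows (6.51%, 4.88 to 8.63). Others of the highest ranks overlapped it in part, such as TAACTA in 26.5% and ACTAAC in 18.3% of members. The 6-base core was chosen on these windows, so the contrast between members and downstream windows is a description.

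The core was not particular to members. It was present in 30.4% of shared intergenic peaks (27.1 to 34.0), a difference of -2.63 points with an interval that includes 0 (-7.45 to 2.20), in 31.8% of 3xTg-only and 34.1% of shared gene-body peaks, and in 29.5% of WT intergenic peaks. Promoter peaks held it less often, in 14.9% of 3xTg-only and 18.0% of shared ones. The core was chosen for its number within 100 bases of member summits, so its position around them is also a description. Shared intergenic windows were not used in that choice. In both classes its matches were densest at the summit. Within 50 bases of the summit members had 169 matches, against 108 in the longer stretches from 100 to 200 bases away on either side, and shared intergenic peaks had 249 against 135. With overlapping matches joined into a site, the counts were 147 against 98 in members and 228 against 128 in shared intergenic peaks. AP-1 matches in members numbered 75 within 50 bases and 69 in the longer outer stretches, so they too were denser near the summit.

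**Figure D4:**
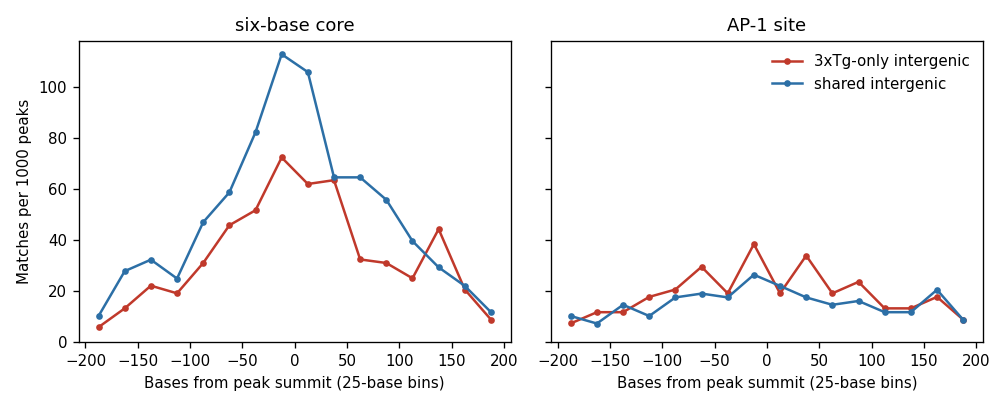
Matches per 1000 peaks to the 6-base core (left) and to the AP-1 site (right) in 25-base bins by distance from the summit in bases, for 3xTg-only and shared intergenic peaks. The core peaks at the summit in both, at 72.5 matches per 1000 members just before the summit and 5.92 at the left edge, and AP-1 shows a lower and flatter rise.

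Examples of the core are shown from the highest members with at least 2 matches in the window and a match within 40 bases of the summit. Each line shows 40 bases on either side of the summit, plus strand of mm10, with the core in capitals in either orientation.
Adra1b (fold enrichment 17.1, chr11:44044461-44044541): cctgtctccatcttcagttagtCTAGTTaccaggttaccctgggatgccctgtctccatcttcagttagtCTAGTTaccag
Efr3a (fold enrichment 14.2, chr15:65593442-65593522): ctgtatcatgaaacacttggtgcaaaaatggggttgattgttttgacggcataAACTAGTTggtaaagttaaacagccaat
Rnf126 (fold enrichment 13.5, chr10:79768605-79768685): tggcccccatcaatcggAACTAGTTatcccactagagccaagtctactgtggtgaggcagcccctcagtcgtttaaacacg
Fcgr3 (fold enrichment 13.3, chr1:171044859-171044939): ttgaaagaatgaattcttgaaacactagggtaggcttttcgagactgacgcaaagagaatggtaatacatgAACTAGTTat
Rap1gds1 (fold enrichment 12.4, chr3:139117084-139117164): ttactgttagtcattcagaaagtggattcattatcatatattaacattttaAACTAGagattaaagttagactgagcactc
Cdh18 (fold enrichment 11.9, chr15:23582031-23582111): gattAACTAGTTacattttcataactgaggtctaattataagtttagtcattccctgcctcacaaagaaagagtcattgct

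At Adra1b the core sits in a tandem repeat, and the window held 4 matches. The 8-base palindrome AACTAGTT holds the core in both readings and counts as 2 matches. Of the members, 48 had 2 or more matches, and 29 had 2 or more separate sites when overlapping matches were joined. Of the 12 members with an RE1 site and the 188 with the core, 1 had both, Napepld. The core and AP-1 were found together in 29 members, where 112 members had an AP-1 match. Whether these sequences avoid or accompany each other was not tested. Altogether 395 of the 676 members had no RE1 site, no AP-1 match and no core.

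The members lay far from curated start sites as a rule. The median distance from the summit to the nearest curated start site was 37780 bases (95% interval of the median 32366 to 45098), and 35028 bases (29949 to 40974) in shared intergenic peaks. Of the 676 members, 81 were within 5 kb of a start site, 518 were over 10 kb away, 192 were over 100 kb away (28.4%, 25.1 to 31.9) and 25 were over 500 kb away. The share over 100 kb from a start site was 23.8% (20.8 to 27.2) in shared intergenic peaks. Members lay upstream of the nearest start in 416 cases and downstream, past the gene's end, in 260. The farthest, chr5:79300088-79300739, was 1720112 bases from the start of Adgrl3, a latrophilin receptor at synapses.

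At the limits of the rule, the members nearest to a start site lay 1038 bases from the microRNA gene Mir138-2, 1041 bases from Lcn5 and 1067 bases from Atp5d, with fold enrichments of 10.7, 8.55 and 10.3. The 3xTg-only peaks just inside 1 kb, outside a transcript, lay 976 bases from Fam222a, 966 from Ndufaf4 and 957 from Fbrs, with 9.67, 8.80 and 13.3. The members closest to a WT peak were 123 bases from it near Neat1, a long noncoding RNA of nuclear paraspeckles, 137 bases near Tex44 and 219 bases near H4bc24. The shared intergenic peaks with the least overlap shared 262 bases near Zfp131 and 265 near Sipa1l1.

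The rule keeps members from overlapping WT peaks, so their distances to WT peaks describe the selection. The median distance to the nearest WT peak was 224296 bases in members. It was 148576 in 3xTg-only gene-body peaks and 134586 in 3xTg-only promoter peaks. Of the members, 51 were within 10 kb of a WT peak and 3 within 1 kb, and 101 were over 1 Mb away. Another 3xTg peak lay within 10 kb of 75 members, and in 46 of these that neighbour was shared with WT. Predicted gene models change the picture of a gene-free setting for some. With all RefSeq models, 119 members were inside a transcript and 38 within 1 kb of a start, and 133 were inside a transcript or within 1 kb of a start in GENCODE.

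Members were found on every chromosome of the list, from 13 on chromosome X to 62 on chromosome 1, which is 0.0760 per Mb on X and between 0.141 and 0.394 per Mb on the autosomes. Chromosome X had 22.4% of its 58 3xTg peaks among the members, and the autosomes between 7.39% and 17.9%. Of those 58 peaks, 26 were intergenic, and 13 of the 26 were members. Over the whole 3xTg list 676 of 1356 intergenic peaks were members, so the intergenic peaks of X were not richer in members. Only 5 places held 3 or more members within 100 kb, with 16 members in all. The densest had 4 in 92329 bases of chromosome 6 next to Eif4a3l1 and E330021D16Rik, with fold enrichments from 8.63 to 11.6. A stretch of 57582 bases on chromosome 12, near 1700008C04Rik, held 3 from 8.98 to 10.9, each with the 6-base core. Another, of 83758 bases on chromosome 13 near Btn2a2, C230035I16Rik and Gm11335, had 3 from 9.01 to 9.67 and none with the core. None of the 16 had an RE1 site.

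The nearest genes were diverse. The 676 members had 634 nearest genes, 36 of them nearest to 2 or more members, and 27 members (3.99%) were nearest to a gene of the lists used here. Potassium, sodium and calcium channel genes include many known REST targets. They were nearest to 1.12% of all 3xTg peaks, to 9 of 680 shared intergenic peaks (1.32%, 0.698 to 2.50) and to 6 members (0.888%, 0.407 to 1.92). These members lay near genes that include Kcne4 (fold enrichment 13.0), Kcna6 (11.5), Kcnh5 (11.3), Cacna2d3 (9.34) and Kcnk13 (8.94). The Cacna2d3 window differed from RE1 at 6 bases, and the Kcna6 member was 1708 bases from a WT peak.

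Glutamate and GABA receptor genes were nearest to 1 member, 140681 bases downstream of the start of Gria2, an AMPA receptor subunit, with a fold enrichment of 12.9. They were nearest to 7 shared intergenic peaks, and the difference was -0.881 points (-1.97 to -0.0153), with no allowance for comparing several lists. The share was 0.148% in members and 0.492% over all 3xTg peaks. Synaptic adhesion and axon guidance genes were nearest to 0.985% of all 3xTg peaks, 9 shared intergenic peaks (1.32%) and 6 members (0.888%). The highest of these members lay near Cdh18 (11.9), a cadherin, near Slit2 (11.7), a secreted guidance cue, near Slitrk5 (11.7), near Cdh5 (9.64), the cadherin of endothelial junctions, and near Ephb3 (8.98), an ephrin receptor. The Cdh18, Slit2 and Slitrk5 members were all over 500 kb from the start site.

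Immediate early genes, which neurons switch on within minutes of activity, were nearest to 5 members (0.740%, 0.316 to 1.72) and to 0 shared intergenic peaks, which allows up to 0.441%. The difference was 0.740 points (0.0363 to 1.72), and over all 3xTg peaks the share was 0.276%. The 5 members have 4 nearest genes, and the interval counts both members at Ier2 as independent. It also makes no allowance for comparing several lists, which were chosen with earlier results known. Ier2 had a member 5851 bases downstream of its start with a fold enrichment of 13.3 and another 1323 bases upstream with 8.94. Fosb, a FOS family member of AP-1, had one 8895 bases downstream (11.1), Egr4, a zinc finger transcription factor, one 2807 bases downstream (9.84), and Fos one 9473 bases downstream (9.34). None of the 5 windows held an RE1 site or the 6-base core.

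Glial genes were nearest to 5 members (0.740%) and to 1 shared intergenic peak (0.147%), a difference of 0.593 points whose interval includes 0 (-0.209 to 1.58). Over all 3xTg peaks their share was 0.256%. A neighbouring pair lay 11045 and 12809 bases downstream of the start of Glul, the glutamine synthetase of astrocytes, with fold enrichments of 10.5 and 10.4. The others were near Olig1 (10.2) and Mobp (8.68), genes of oligodendrocytes, and near Sall1 (9.50), a microglial transcription factor. Neural transcription factor genes were nearest to 4 members (0.592%), 2 shared intergenic peaks (0.294%) and 0.571% of all 3xTg peaks. The 4 members were near Myt1l (10.4), Mef2c (9.32), Neurod2 (9.23) and Fezf2 (8.98). The Neurod2 and Fezf2 members lay 5470 and 7744 bases downstream of the start, and the Mef2c member 393132 bases upstream.

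No member had its nearest start site at a gene of the Alzheimer, tau kinase and apoptosis list or of the REST corepressor list, of which 38 and 13 genes had a curated transcript. A count of 0 of 676 allows up to 0.444% in each. Over all intergenic 3xTg peaks the Alzheimer list was nearest to 2 of 1356 (0.147%), both shared with WT, and over all 5077 3xTg peaks to 20 (0.394%). The REST corepressor list was nearest to 0 of the 1356 and to 3 of the 5077 (0.0591%).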

How the data were processed

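Per the labels and the study's methods, chromatin from 4 replicates per genotype (each 4 pooled female cortices) was precipitated with a REST antibody and sequenced as single-end reads. The authors aligned reads to mm10 (STAR 2.7.0a in the methods, BWA in the submitters' processing notes), called peaks with MACS, kept peaks with fold enrichment over 5 and q under 0.01, removed blacklisted regions and deposited 1 list per genotype. The lowest fold enrichment in the deposited lists was 8.50 (3xTg) and 6.0 (WT), above the stated limit of 5. The reason for this, and how replicates were combined, is not given in the sources used here. Deposited values per peak are a score, the fold enrichment over local background (a ratio), and the −log10 of p and of q. The score, made from q, and the p-values were not used further.

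The 9 3xTg and 4 WT peaks on chromosome Y were left out. Peaks overlapped when they shared at least 1 base. Start sites and transcripts were the curated RefSeq entries of mm10, and repeat masking was that of the RefSeq genome. RE1 was searched with the consensus of the known-motif logo of the study. Shares have 95% Wilson intervals, differences 95% Newcombe intervals and medians 95% binomial order-statistic intervals, which cover counting error only. Where the text gives a limit beside a count of 0, it is 3 counts of the total in place of the Wilson bound. Depth per sample is unknown from the lists, and the replicates have no values of their own in them, so no test was made here.

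The members and the lists of genes and sequences were chosen with earlier results of these data known. Members named are the 10 with the highest fold enrichment, those with the fewest RE1 mismatches, those at the limits of the rule, the 3 densest groups and, for each gene list, up to 5 by fold enrichment. The channel member with the lowest fold enrichment, the 6-base sequences and the members printed with them or with AP-1 were added after their values were seen. Some items covered by these rules are not reported here. Alternatives were higher limits on fold enrichment and q, a stricter overlap, a gap to WT peaks, all RefSeq models, 5 kb from start sites, autosomes, wider windows and other mismatch limits.

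Software was samtools 1.23.1 and Python 3.11.15 (pysam 0.24.0, numpy 2.4.6, scipy 1.17.1, pandas 2.3.3, matplotlib 3.10.9). The search was tested on simulated data, and all 200 RE1 sites planted in shuffled windows were found at their position, strand and number of mismatches. The planted sites had at most 4 mismatches, so sites with 5 were not covered, and false matches were not tested.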

Additional observations from a re-analysis of the deposited data

Results flagged for a closer look

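The mice were female, yet the 3xTg list holds 9 peaks and the WT list 4 peaks on chromosome Y, which the comparisons left out. Of the 9, 5 overlapped no WT peak and were intergenic by the same rule as the members, with a fold enrichment of up to 12.1.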

How the results depend on the processing

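Of 79 values recomputed under an alternative, 68 stayed within the interval of the reported value, or within 1.5 times a reported count. The other 11 moved outside it and 0 changed sign, though only the difference in RE1 share could do so. Some values could not move, such as those under the q limit, which every peak of both lists passes. The masked share likewise does not depend on the window. With fold enrichment over 10, 317 members remained, their share of intergenic 3xTg peaks was 34.6%, their median fold enrichment was 11.2 and the 6-base core was in 32.2%. When sharing asked for 50% of each peak, the share was 61.4% and the median fold enrichment 10.2. With at most 6 mismatches, RE1 sites were in 3.55% of members. With 200 bases on either side of the summit, the median CpG count was 4.00 and the core was in 37.3%, in windows that hold more bases. The median distance to a start site was 23923 bases with all RefSeq models and 49508 bases for members over 5 kb from a start, which the alternatives bring about by adding starts or removing near members. The difference in RE1 share between members and shared intergenic peaks ran from -7.05 to -4.35 points over all alternatives, with intervals below 0 in each. The limit of q under 1e-05 removed no member. No paired analysis was possible because each list pools the replicates of a genotype, and leaving out a replicate could not be run for the same reason. The unknown depth and the unequal lowest heights of the lists (8.50 and 6.0) limit what a missing WT peak shows.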

Other observations

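Among the 6-base sequences ranked by their number in members over that in windows 10 kb downstream, GCTAAC was in 104 members and 30 downstream windows, GACTAG in 116 and 37, and AGTTAG in 136 and 47. In shared intergenic peaks these sequences were present in 13.8%, 17.5% and 21.5%.

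The 97 WT-only intergenic peaks were low in their own list, with a median fold enrichment of 6.41 and a highest value of 8.70. Their median GC content was 47.3% (45.8 to 50.2), and 9.28% of them had no CpG in the window (4.96 to 16.7), beside 19.8% of members (17.0 to 23.0).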
